A study of Mus musculus with 11 samples.

Results

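The testis transcriptome of mice lacking iron regulatory protein 2 was compared with that of wild-type mice. Of the 11 samples of the series, the 7 samples labelled Irp2_KO (n = 3) or WT (n = 4) were taken, and of the 24411 genes in the count table the 16154 that passed a filter on low counts were tested. The Irp2_KO mice (Irp2-/-) carried a global knockout of Ireb2, the gene encoding Irp2, and the WT mice were wild-type C57Bl/6J animals. All mice were 20 weeks old and received no treatment, and polyadenylated RNA of decapsulated testis was sequenced. The other 4 samples, from mice with a global knockout of Aco1 (Irp1-/-, the gene of iron regulatory protein 1), are given only beside values of Irp2-/- mice. Per the methods of the study, WT animals were littermates from the Irp1 line. The allele and the genetic background of the Irp2-/- mice, and their relation to the WT litters, are not given in the sources used here. Differences that come from the litter or background of the 2 lines therefore cannot be told apart from differences that come from the loss of Irp2. The column names carry the letter L for all 7 samples, the meaning of which is not stated.

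Irp1 and Irp2 are RNA-binding proteins that keep cellular iron in balance. When iron is scarce, they bind short hairpins called iron-responsive elements. A hairpin in the 5' UTR blocks translation of the transcript, as in the ferritins and the exporter ferroportin, and hairpins in the 3' UTR of transferrin receptor mRNA protect it from decay. When iron is ample, Irp2 is degraded through the ubiquitin ligase subunit Fbxl5, whereas Irp1 takes up an iron-sulfur cluster and becomes a cytosolic aconitase. In the testis, iron is needed by dividing germ cells, by mitochondria and by the heme enzymes of steroid synthesis.

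Total counts lay between 18519415 and 22349732 in Irp2-/- and between 16358055 and 18257228 in WT testes, so every Irp2-/- library was deeper than every WT library. Replicates of a genotype differed by more than sampling noise. The labels do not say that each sample is a separate mouse, and p-values then measure the spread between these samples. Of 16154 genes tested with edgeR's quasi-likelihood test, 196 had an adjusted p under 0.05 (1.21%), 60 of them higher (0.371%) and 136 lower (0.842%) in Irp2-/- than in WT testes. The median absolute log2 fold change (log2FC, Irp2-/- minus WT) of these 196 genes was 0.39. With an absolute log2 fold change over 1 as a further condition, 28 genes remained (0.173%), 5 higher (0.031%) and 23 lower (0.142%). Of the 196 genes, 195 had groups that did not overlap, which is largely fixed by their choice through a test on the same samples. Over all genes tested the share without overlap was 9.3% (4.75% higher and 4.55% lower). Over the 500 most variable genes, 23.4% of the summed squared deviations lay between the genotypes (exact permutation test, one-sided, p = 0.0286, below which this design cannot go). Without Irp2-/- replicate 2, 118 genes were called in place of 196. In whole testis, fewer cells of a type and less RNA per cell cannot be told apart.

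**Figure D1:**
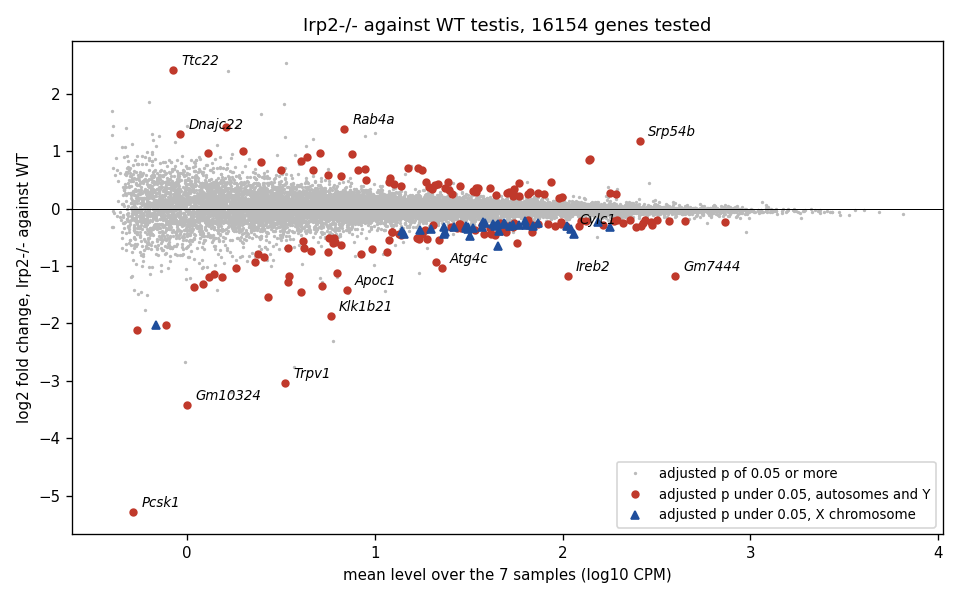
Log2 fold change between Irp2-/- and WT testes (vertical axis) against the mean level over the 7 samples (log10 CPM, horizontal axis) for the 16154 genes tested, with 1 point per gene. The 196 genes with an adjusted p under 0.05 are drawn large, and the 38 of them on the X chromosome (triangles) all lie below 0.

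The targeted gene Ireb2, on chromosome 9 from 54862658 to 54912534 of mm10, was lower in every Irp2-/- testis. Its level was 62.0, 61.6 and 63.1 CPM (a gene's counts scaled to a common library size) in Irp2-/- testes and 143, 144, 131 and 140 CPM in WT testes. No Irp2-/- sample reached the WT range, and log2FC was -1.16 (standard error, SE, 0.050, adjusted p = 2.84e-13, edgeR). Counts per gene do not show which exons the remaining Ireb2 reads cover. Aco1, which encodes Irp1, had 11.8, 10.1 and 13.4 CPM in Irp2-/- and 9.77 to 12.9 CPM in WT testes, with a log2FC of 0.00 (SE 0.110, adjusted p = 0.999, edgeR). Transcripts of the machinery that degrades Irp2 did not pass the test. Fbxl5 had at most 102 CPM in Irp2-/- and 107 to 115 CPM in WT testes (log2FC -0.12, adjusted p = 0.306), and the values of Skp1a and Cul1 overlapped between genotypes.

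The transcripts known to carry an iron-responsive element were nearly level between the genotypes. The core of the element is shown for 5 genes, read from GENCODE vM21 transcripts and given with mm10 coordinates, because it is the sequence to which Irp2 binds. Capitals mark the unpaired C and the loop CAGTGN, and the lower-case bases on both sides pair with each other.
Fth1, 5' UTR, chr19:9982738-9982754, plus strand: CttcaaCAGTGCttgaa
Ftl1, 5' UTR, chr7:45459785-45459801, minus strand: CttcaaCAGTGTttgaa
Slc40a1, 5' UTR, chr1:45925471-45925487, minus strand: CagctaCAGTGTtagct
Epas1, 5' UTR, chr17:86753774-86753791, plus strand: CctcggCAGTGTcctgag
Tfrc, 3' UTR, first of 4 matches, chr16:32631225-32631241, plus strand: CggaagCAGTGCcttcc
The search asked for CNNNNNCAGTGN followed by bases that complete 5 pairs (G-T pairs allowed), with at most 1 unpaired base in the 3' arm, on the transcript strand. Epas1 was the one of the 5 with such an unpaired base. The pattern occurred in the 5' UTR of 81 of 20899 genes (0.388%) and in the 3' UTR of 357 of 21685 genes (1.65%). A match to these letters is not by itself a site bound by Irp2.

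Among 13 transcripts listed for iron-responsive elements, 1 was called higher and 0 lower, and the median log2FC was 0.07, against 0.00 over all genes tested. The called gene was Epas1, which encodes Hif2a, the transcription factor of the oxygen response. Epas1 had 47.5, 47.7 and 45.9 CPM in Irp2-/- testes and 36.3, 35.1, 38.1 and 37.4 CPM in WT testes. All 3 knockout samples lay above the 4 WT samples, with a log2FC of 0.36 (SE 0.056, adjusted p = 0.000735, edgeR). In Irp1-/- testes the log2FC against the same WT samples was -0.07, and the direct comparison of Irp2-/- with Irp1-/- testes gave a difference of 0.42 (adjusted p = 0.000226). That comparison uses the same 3 Irp2-/- samples, so for genes called against WT it is not independent evidence. The call held without any 1 of the 7 samples.

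Of the ferritin subunits, Fth1, the heavy chain that oxidizes iron, had 142, 123 and 128 CPM in Irp2-/- and 145, 143, 148 and 151 CPM in WT testes. All knockout values lay below all WT values, yet the difference did not pass the test (log2FC -0.16, SE 0.051, adjusted p = 0.168). Without Irp2-/- replicate 1, the highest of the 3, its adjusted p was 0.00917, and over all alternatives it reached 0.573. The light chain Ftl1 overlapped between genotypes, with 65.9 to 88.9 CPM in Irp2-/- and 53.0 to 70.5 CPM in WT testes. For Tfrc, the receptor that takes up transferrin-bound iron, the log2FC was 0.07 (SE 0.081, adjusted p = 0.902). That of Slc40a1, which encodes ferroportin, was -0.08 (SE 0.313, adjusted p = 0.976), from levels of 0.767 to 2.67 CPM, so that only a large difference could have been detected. Slc11a2, the iron importer Dmt1, had 23.8 to 24.8 CPM in Irp2-/- and 20.8 to 23 CPM in WT testes (adjusted p = 0.415). Over all 361 tested genes with the pattern in a UTR, 5 were called higher and 1 lower, and the median log2FC was 0.01. Of all genes tested, 1.21% were called in either direction, 0.371% higher and 0.842% lower.

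In the lists of iron transport, heme and iron-sulfur genes, no member passed the test. Of 24 tested genes of iron transport and storage, 0 were called, 16 lay below 0 and the median log2FC was -0.06. The nearest to a call was Trf, transferrin, the iron carrier that Sertoli cells also secrete. Trf had 14.2, 11.6 and 13.2 CPM in Irp2-/- and 14.9, 16.9, 16.2 and 19.9 CPM in WT testes, which did not overlap (log2FC -0.38, SE 0.099, adjusted p = 0.0601, edgeR). Under 6 of the alternative settings Trf had an adjusted p under 0.05, from 0.0257 to 0.0475, and under the others it reached 0.338. Of 21 genes of heme synthesis, transport and breakdown 0 were called, with a median of -0.00. The same held for 30 genes of iron-sulfur cluster assembly (median 0.01) and 31 iron-sulfur proteins (median 0.01). In the heme pathway, the synthase Alas1 had 95.8 to 106 CPM in Irp2-/- and 93.1 to 110 CPM in WT testes. Alad, the next enzyme of the pathway, had a log2FC of 0.02 in Irp2-/- and 0.53 in Irp1-/- testes, and the direct comparison of the knockouts gave -0.52 (adjusted p = 0.000506). Iscu, the scaffold on which clusters are built, had a log2FC of -0.03 (adjusted p = 0.95).

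Genes that answer to hypoxia-inducible factors or to oxidative stress were mostly level. Of 19 tested HIF targets 1 was called, Epas1 itself, which stands on both lists, and the median log2FC was 0.00. Vegfa, the endothelial growth factor, had 5.16, 5.06 and 5.39 CPM in Irp2-/- and 3.24, 3.23, 4.48 and 3.48 CPM in WT testes. Its groups did not overlap (log2FC 0.53, SE 0.147, adjusted p = 0.0882). Ndrg1 had 13.0 to 16 CPM in Irp2-/- and 10.5 to 12.1 CPM in WT testes (log2FC 0.37, adjusted p = 0.0576). Neither passed the test, and Hif1a and Slc2a1 overlapped between genotypes. Of 33 antioxidant and ferroptosis genes 0 were called (median -0.02), with 16 above and 17 below 0. The summed level of the list was 3988, 3936 and 3695 CPM in Irp2-/- and 4013 to 4087 CPM in WT testes, which did not overlap. Gpx4, the peroxidase that guards against ferroptosis and is abundant in spermatids, had 1029 to 1260 CPM in Irp2-/- and 1130 to 1205 CPM in WT testes. Of 20 apoptosis regulators 0 were called as well (median 0.05).

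**Figure D2:**
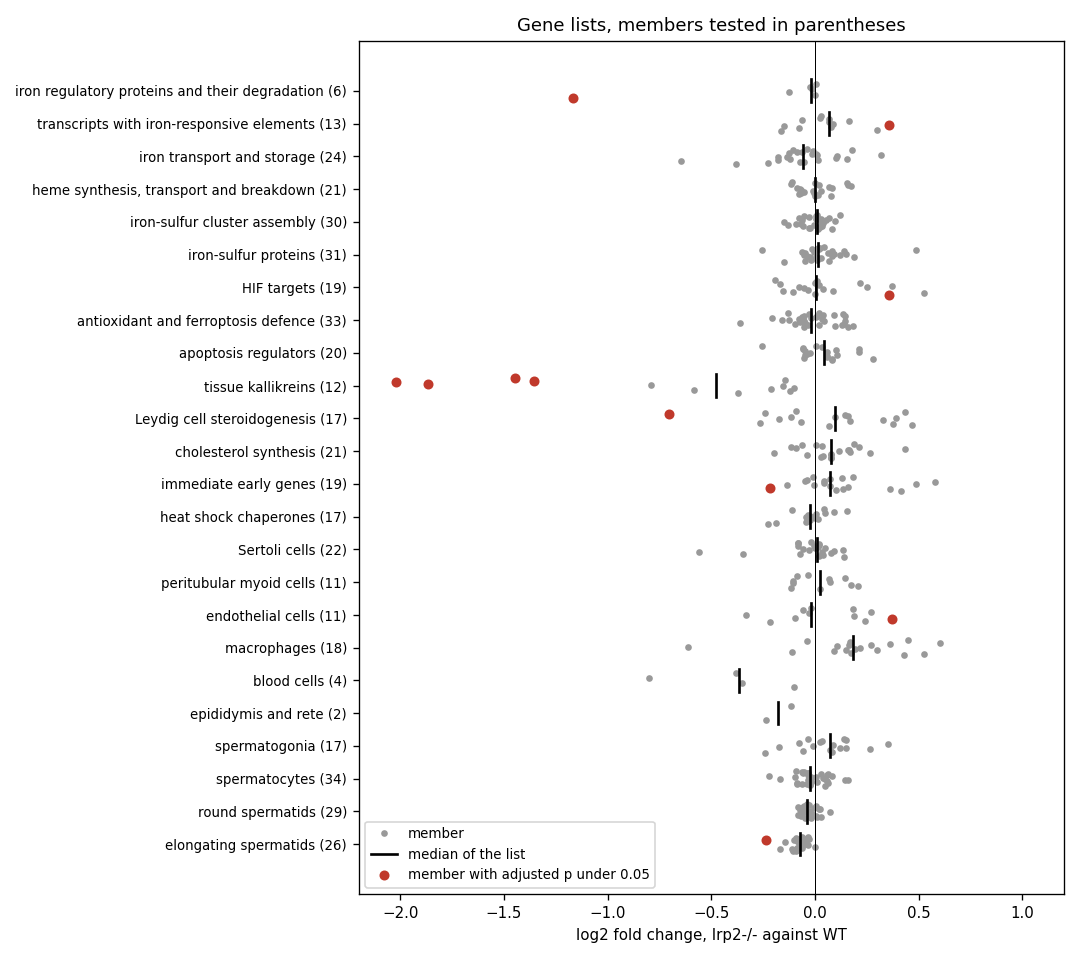
Log2 fold change between Irp2-/- and WT testes (horizontal axis) for the tested members of each gene list (1 point per gene, number tested in parentheses), with the median of the list as a black bar. Members with an adjusted p under 0.05 are red, and the 4 called tissue kallikreins lie between -2.02 and -1.35.

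The tissue kallikreins, serine proteases encoded in a cluster on chromosome 7, stood out by size of change among the lists. Of 12 tested members, 4 were called lower and 0 higher (33.3%, against 0.842% lower and 1.21% in either direction over all genes), all 12 had a log2FC below 0, and the median was -0.48. Klk1b21, Klk1b24 and Klk1b27 are known from Leydig cells of the mouse testis. Klk1b21 had 2.36, 2.15 and 2.43 CPM in Irp2-/- and 6.70, 7.26, 12.3 and 7.58 CPM in WT testes (log2FC -1.87, SE 0.206, adjusted p = 7.95e-05, edgeR). For Klk1b24 the values were 3.43, 1.74 and 3.07 CPM against 7.03, 6.27, 8.10 and 6.86 CPM (log2FC -1.35, SE 0.175, adjusted p = 7.95e-05). Klk1b27 had 2.27, 1.84 and 2.01 CPM against 4.41, 4.84, 8.27 and 4.81 CPM (log2FC -1.44, adjusted p = 0.000609). In each of these genes the lowest WT sample was higher than the highest Irp2-/- sample. Klk1b22 was called at a lower level, with 0.153 to 0.356 CPM in Irp2-/- and 0.885 to 1.34 CPM in WT testes (log2FC -2.02, adjusted p = 0.00396). All 4 also differed from Irp1-/- testes in the direct comparison, by -2.81 to -1.78 on the log2 scale. That comparison uses the same Irp2-/- samples, so it is not independent evidence.

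The other 8 tested kallikreins did not pass the test. The lowest relative to WT were Klk1b16, with 0.423 to 0.712 CPM in Irp2-/- and 0.614 to 1.15 CPM in WT testes (log2FC -0.79, adjusted p = 0.427), and Klk1b4, with 0.423 to 0.579 CPM against 0.608 to 0.869 CPM (log2FC -0.58, adjusted p = 0.664). The groups overlapped for Klk1b16 and not for Klk1b4. Klk1b8 had 47.8, 47.0 and 42.2 CPM in Irp2-/- and 46.4 to 53.2 CPM in WT testes (log2FC -0.10, adjusted p = 0.696). Klk1b9 had 8.94 to 11.2 CPM against 9.81 to 11.7 CPM, and Klk1b26 had 6.39 to 7.97 CPM against 7.70 to 8.10 CPM. Scaled over all 11 samples, the summed level of the 14 Klk1b genes in the table was 76.8 to 87.6 CPM in Irp2-/- and 96.6 to 108 CPM in WT testes. These genes are close copies of each other, and how the authors' counting divided reads among them is not stated, so the level of a single member is uncertain. Where every sample had to reach 10 counts, which removes low members, the median of the list was -0.21, and without Irp2-/- replicate 1 it was -0.72.

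The promoters of called and uncalled kallikreins are alike over a short stretch near the annotated start, which is shown because the genes lie side by side and not all of them fell. Sequences are from RefSeq (GRCm38.p6), on the plus strand of chromosome 7, with TTTAAA in capitals.
Klk1b21 (lower), chr7:44102284-44102313: gagaatgagggtTTTAAAgtctcccgagga
Klk1b24 (lower), chr7:44188193-44188222: gagaatgagggtTTTAAAgtctcctgagga
Klk1b27 (lower), chr7:44052261-44052290: agaatgagcgttTTTAAAgtctcccgagga
Klk1b22 (lower), chr7:44112621-44112650: agaatgagggttTTTAAAgtctccctgagg
Klk1b9 (not called), chr7:43976016-43976045: agaatgagggttTTTAAAgtctccctgagg
Klk1b8 (not called), chr7:43950610-43950639: agaatgagggttTTTAAAgtcaccccaagg
Klk1b26 (not called), chr7:44012640-44012669: agaatgagggtaTTTAAAatctcctgagga
All 12 genes matched a RefSeq promoter by symbol, of which 11 held TTTAAA (palindromic, so found on both strands) in the 300 bases around the start and 8 had it followed directly by GTCTCC. Of all 32851 promoters, 13.2% held TTTAAA. The stretches of 30 bases shown are the same letters in Klk1b22, which was called, and in Klk1b9, which was not. A match says nothing of whether the stretch is used.

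Other Leydig cell genes overlapped between the genotypes in most cases. Of 17 tested genes of Leydig cell steroidogenesis 1 was called lower and 0 higher, and the median log2FC was 0.10. The summed level of the list was 1125, 954.6 and 1219 CPM in Irp2-/- and 942.3, 923, 1280 and 1207 CPM in WT testes, which overlapped. The WT samples were uneven: Cyp17a1, the enzyme that makes androgens from progestins, had 95.3 and 91.6 CPM in WT replicates 1 and 2 against 238 and 192 CPM in replicates 3 and 4, and 176 to 218 CPM in Irp2-/- testes. Cyp11a1, which starts steroid synthesis from cholesterol, showed the same split, with 34.5 and 28.9 against 84.3 and 75.5 CPM. Klk1b24 was lower in every Irp2-/- sample than in any sample of either pair, which is largely fixed by its call on these same samples. The part of Leydig cell content in the kallikrein decreases was not tested. The called Leydig gene was Sult1e1, which inactivates estrogens by sulfation, with 5.03, 7.67 and 8.62 CPM in Irp2-/- and 9.49, 13.6, 11.4 and 11.6 CPM in WT testes (log2FC -0.70, SE 0.161, adjusted p = 0.0488, edgeR). That call was lost in 5 of the 7 fits that left out 1 sample. Star, the cholesterol carrier, ranged from 52.6 to 103 CPM in Irp2-/- and from 41.7 to 102 CPM in WT testes. Of 21 genes of cholesterol synthesis 0 were called (median 0.08). Cyp19a1, the aromatase that makes estrogens, had 3.07, 2.71 and 3.54 CPM in Irp2-/- and 3.96, 5.40, 5.69 and 5.03 CPM in WT testes (log2FC -0.69, adjusted p = 0.0258). Cyp19a1 lies 0.697 Mb before Ireb2 and is one of the called genes around it. Its call was lost in 5 of the 7 fits without 1 sample.

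Outside the kallikreins, genes of varied function were lower by more than 1 on the log2 scale. Pcsk1, the convertase that cleaves prohormones, had 1 count in all Irp2-/- libraries together and 62 counts in WT libraries, a ratio of 53.6 (exact 95% interval 9.28 to 2150, counting error only). Gm10324 had 9 counts against 114 (ratio 11, interval 5.57 to 24.6). Trpv1, the heat- and capsaicin-gated cation channel, had 0.356, 0.920 and 0.687 CPM in Irp2-/- and 4.97, 5.65, 5.17 and 5.59 CPM in WT testes. Its log2FC was -3.04 (SE 0.225, adjusted p = 5.41e-09, edgeR), and in Irp1-/- testes it was -0.15. Apoc1, an apolipoprotein of lipid transport, had 3.25, 3.12 and 4.6 CPM against 11.1, 9.62, 9.31 and 8.63 CPM (log2FC -1.41, adjusted p = 1.03e-06). Mpped1 fell to 1.87 to 2.25 CPM from 3.62 to 5.69 CPM (log2FC -1.17, adjusted p = 0.000867). The calls of Pcsk1, Gm10324, Trpv1, Apoc1 and Mpped1 held without any 1 of the 7 samples. Gm10451 and Gm2927 were lower by -2.12 (adjusted p = 0.0119) and -2.03 (adjusted p = 0.0137) on the log2 scale, from WT levels of at most 1.34 CPM. Gm10451 lost its call without Irp2-/- replicate 2, and Gm2927 without Irp2-/- replicate 2 or 3.

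Plac9a and Plac9b, near-identical copies on chromosome 14, were both called lower, and their summed level, scaled over all 11 samples, was 3.84 to 7.31 CPM in Irp2-/- and 10.7 to 13.5 CPM in WT testes. Plac9b lost its call without Irp2-/- replicate 1, and Plac9a without Irp2-/- replicate 2 or WT replicate 4. Tbx3, a T-box transcription factor, and Rcan2, a regulator of calcineurin, were lower by -1.19 and -1.03 on the log2 scale from levels under 3 CPM. Their calls were lost in 6 and 4 of the 7 fits without 1 sample, and neither was called by DESeq2. Calls at similarly low levels that were lost in at least 3 of these fits were Ssc5d, Olfr126, Mrgpra2b and Vmn1r181. Sensory receptor genes such as the last 3 belong to large families of related sequence, and their levels are uncertain for that reason too.

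**Figure D3:**
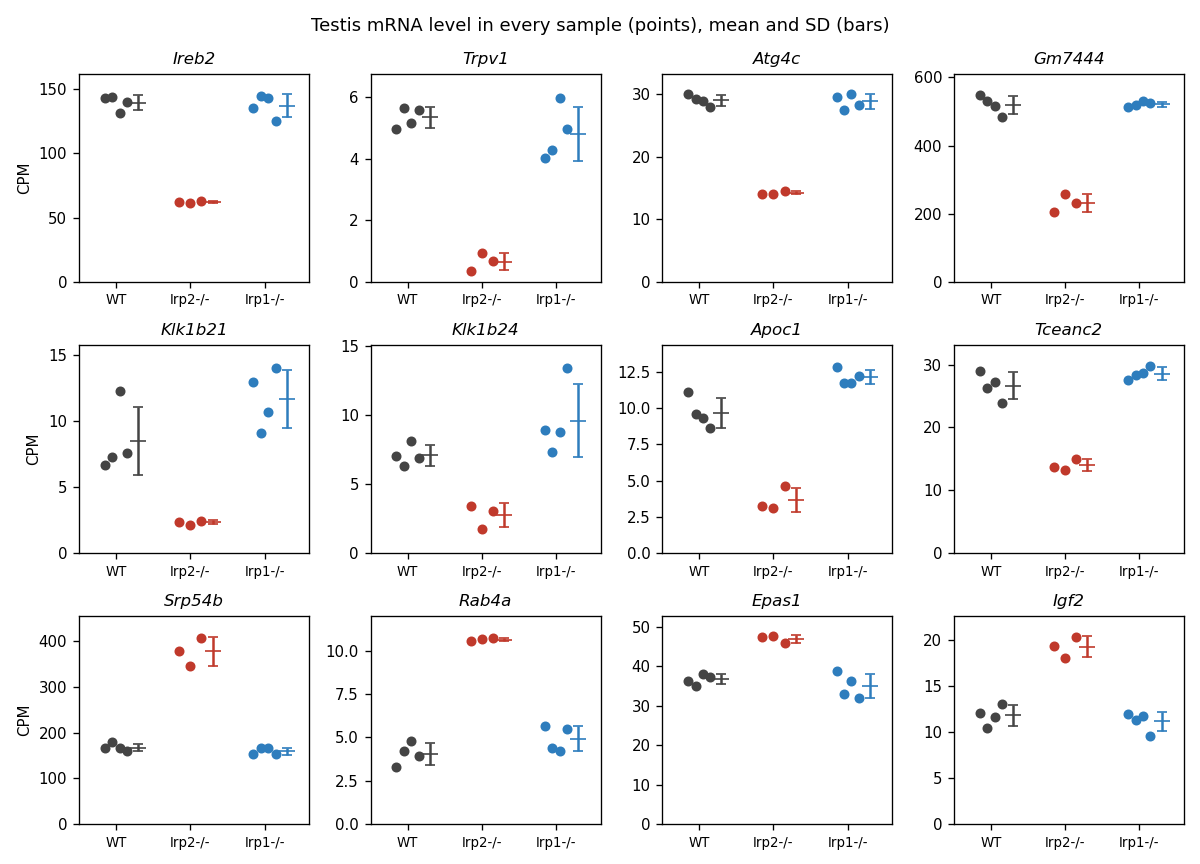
Level of 12 genes in every WT, Irp2-/- and Irp1-/- testis (points, CPM on a linear axis from 0), with the mean and SD of each genotype beside them (n = 4, 3 and 4). In each gene the 3 Irp2-/- samples lie apart from the 4 WT samples, for instance Ireb2 at 61.6 to 63.1 CPM against 131 to 144 CPM.

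Several called genes lay near each other on chromosomes other than that of Ireb2. On chromosome 4 of mm10, Atg4c, a protease of autophagy that lies from 99189159 to 99297258, had 14.1, 14.1 and 14.5 CPM in Irp2-/- and 30.0, 29.2, 29.0 and 27.9 CPM in WT testes (log2FC -1.03, SE 0.070, adjusted p = 1.04e-09, edgeR). Itgb3bp, which starts at 99767406 and encodes a centromere protein, was lower, with 43.5 to 45.5 CPM against 64.4 to 71.2 CPM (log2FC -0.59, adjusted p = 3.13e-07). Efcab7, which starts shortly after the end of Itgb3bp, was higher by 0.68 (adjusted p = 1.14e-05), with 22.3 to 23.3 CPM against 13.1 to 15.5 CPM. Further along the chromosome, windows of 10 Mb were kept for a closer look only where at least 5 genes were called. Over chromosome 4 as a whole 1.76% of tested genes were called, and 1.21% over all genes. In the window between 100 and 110 Mb, 5 of 77 tested genes were called (6.49%). Among them, Tceanc2 was lower (13.8, 13.1 and 15 CPM against 29.0, 26.3, 27.2 and 23.8 CPM, log2FC -0.93, adjusted p = 1.07e-07), and Ttc22, at 1.53 to 1.6 CPM against 0.112 to 0.517 CPM, was higher (log2FC 2.42, adjusted p = 0.000373). The called genes named on this chromosome thus moved in both directions. Of the 5 calls between 100 and 110 Mb, those of Ube2u and Mroh7 were lost in 6 and 4 of the 7 fits without 1 sample.

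On chromosome 12, 3 genes in a stretch from 55124435 to 55217168 had the 3 smallest p-values among genes called higher. Srp54b encodes a subunit of the signal recognition particle, which directs nascent proteins to the endoplasmic reticulum. It had 379, 346 and 408 CPM in Irp2-/- and 166, 179, 166 and 159 CPM in WT testes (log2FC 1.17, SE 0.053, adjusted p = 8.08e-13, edgeR). Fam177a, on its left, had 191, 175 and 194 CPM against 99.7 to 108 CPM (log2FC 0.86, adjusted p = 4.24e-11). 1700047I17Rik2, on its right, had 191, 177 and 196 CPM against 99.2 to 107 CPM (log2FC 0.87, adjusted p = 3.93e-11). Fam177a and 1700047I17Rik2 had nearly the same counts in every sample, for instance 4282 and 4294 in Irp2-/- replicate 1. Whether they share reads was not tested, so their 2 calls are not taken as independent. The copies Srp54a and Srp54c, on either side of the 3 genes, were 1.22 and 1.15 times their WT mean and were not called. On the scale of all 11 samples, the 3 copies of Srp54 summed to 568 to 644 CPM in Irp2-/- and 341 to 382 CPM in WT testes. In Irp1-/- testes the log2FC values of the 3 genes lay between -0.07 and -0.05. Copy number of this stretch in the Irp2 line was not tested.

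Other genes called higher were Rab4a, a small GTPase of recycling endosomes, with 10.5, 10.7 and 10.7 CPM in Irp2-/- and 3.29, 4.22, 4.77 and 3.93 CPM in WT testes (log2FC 1.39, SE 0.122, adjusted p = 1.1e-07, edgeR). Igf2, an imprinted growth factor, had 19.4, 18.1 and 20.4 CPM against 12.1, 10.4, 11.7 and 13.1 CPM (log2FC 0.70, adjusted p = 3.95e-05). Inpp5a, an inositol phosphatase, and B4galnt4, a glycosyltransferase, lie a few megabases from Igf2 on chromosome 7 and were higher by 0.47 (adjusted p = 9.89e-07) and 0.71 (adjusted p = 3.88e-05). Dnajc22, at 0.935 to 1.84 CPM against 0.460 to 0.670 CPM, was called (log2FC 1.30, adjusted p = 0.0357), and 6 of the 7 fits without 1 sample lost that call.

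Around Ireb2 itself, of the 200 tested genes on each side, 13 of 400 were called (3.25%), 6 higher and 7 lower, against 1.21% of all genes tested and 1.67% of those on chromosome 9. All 13 lay within the nearest 100 on each side (6.5% of 200), from 10.1 Mb before to 3.59 Mb after the start of Ireb2. Both ends rest on unstable calls. Those of Kmt2a, Cyp19a1 and 4930461G14Rik were each lost in 5 of the 7 fits without 1 sample. The call of Pstpip1 was lost in 6 and that of Ncam1 in 2. The calls that held in every such fit lay from 1810046K07Rik (-3.57 Mb) to 1700017B05Rik (2.39 Mb). With 400 genes on each side the count was 14 of 725 (1.93%). Gm7444, 1.16 Mb after Ireb2, fell as far as Ireb2 did, from 549, 530, 515 and 485 CPM in WT to 204, 258 and 230 CPM in Irp2-/- testes (log2FC -1.17, SE 0.067, adjusted p = 2.59e-08, edgeR). The adjoining 4930563M21Rik was lower as well (log2FC -0.76, adjusted p = 0.00015). Snupn, the import adaptor of spliceosomal snRNPs, had 15.7, 14.7 and 15 CPM in Irp2-/- and 20.6 to 22.9 CPM in WT testes (log2FC -0.53, adjusted p = 0.000285). On the other side, 1810046K07Rik and 4933407I05Rik were higher by 1.43 (adjusted p = 0.00345) and 0.96 (adjusted p = 2.82e-05). Of these 13 genes, 10 also differed from Irp1-/- testes in the direct comparison, as did 4.69% of all genes tested there. They had been chosen on the same Irp2-/- samples, so nothing is read from that count. Whether the stretch comes from another mouse strain was not tested.

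**Figure D4:**
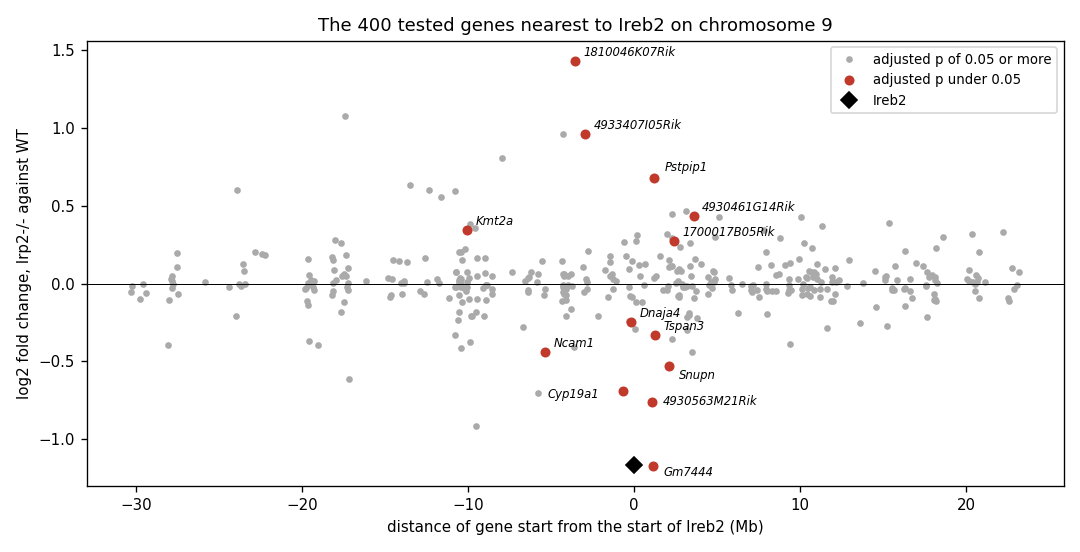
Log2 fold change between Irp2-/- and WT testes (vertical axis) for the 400 tested genes nearest to Ireb2, by the distance of their start from the start of Ireb2 on chromosome 9 (Mb, horizontal axis). The 13 genes with an adjusted p under 0.05 (red) lie from 10.1 Mb before to 3.59 Mb after Ireb2 (black diamond at -1.16). The calls at both ends were lost in 5 of the 7 fits without 1 sample.

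Genes on the X chromosome were lower far more often than autosomal genes. Of 694 tested X-linked genes 38 were called lower and 0 higher (5.48%), against 98 lower and 58 higher of 15366 autosomal genes (1.02%). The decreases were small, with a median log2FC of -0.32 and a range of -2.03 to -0.22 among the called genes. Over all tested X-linked genes the median was -0.04 (autosomes 0.00), and 12.4% lay below every WT sample in all Irp2-/- samples (autosomes 4.18%, all genes 4.55%). Among genes at 10 CPM or more the median was -0.08 on the X (252 genes, 37 called lower) and -0.00 on the autosomes (9099 genes). X-linked genes are silenced in spermatocytes during meiosis, and a set of them is switched on again in round spermatids, where many are germ cell-specific.

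Cylc1, which encodes a cylicin of the sperm head cytoskeleton, had 91.6, 103 and 92.9 CPM in Irp2-/- and 120, 123, 126 and 124 CPM in WT testes (log2FC -0.36, SE 0.050, adjusted p = 0.000161, edgeR). Tspan6, a tetraspanin, had 97.8, 98.8 and 90.2 CPM against 128 to 131 CPM (log2FC -0.44, adjusted p = 5.02e-06). Gm614 had 38.2, 32.5 and 31.1 CPM against 51.9 to 55.5 CPM (log2FC -0.65, adjusted p = 1.03e-06). The groups of these genes did not overlap, and their calls held without any 1 of the 7 samples. Others were Vsig1, an adhesion protein of the immunoglobulin family (log2FC -0.31), Rp2h, a regulator of ciliary trafficking (-0.38), Actrt1, an actin-related protein of the sperm head (-0.44), and Cdk16, a kinase needed for sperm development (-0.22).

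The X-linked share of all counts was 1.2006%, 1.1489% and 1.1661% in Irp2-/- and 1.1982% to 1.2746% in WT testes, which overlapped. In the direct comparison with Irp1-/- testes, 36 of the 38 genes were called. They had been chosen as low in the same Irp2-/- samples, so nothing is read from that count. The median X-linked log2FC of Irp1-/- against the same WT samples was 0.10. Without Irp2-/- replicate 3 the count of X-linked genes called lower was 15, without Irp2-/- replicate 2 it was 23 and without WT replicate 2 it was 24. After correction of each sample for GC content and transcript length it was 25. On the Y chromosome 1 of 38 tested genes was called, Gm21943, which was higher.

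**Figure D5:**
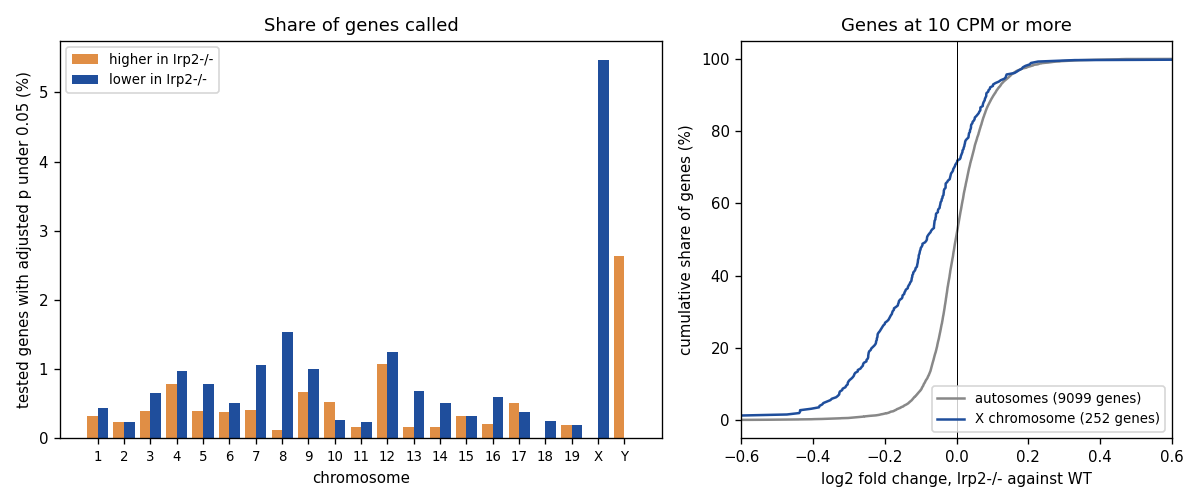
Left, share of tested genes on each chromosome that were called higher (orange) or lower (blue) in Irp2-/- testes (percent). Right, cumulative share of genes at 10 CPM or more by log2FC for 252 X-linked and 9099 autosomal genes, with the X-linked curve shifted to the left (median -0.08 against -0.00).

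Germ cell markers moved little. Of the lists for spermatogonia (17 tested), spermatocytes (34) and round spermatids (29), 0 members were called, with medians of 0.07, -0.02 and -0.04. Of 26 genes of elongating spermatids, 1 was called lower, all 26 had a log2FC below 0, and the median was -0.07. The called gene was Cabs1, a calcium-binding protein of spermatids, with 670, 683 and 633 CPM in Irp2-/- and 761, 781, 787 and 785 CPM in WT testes (log2FC -0.23, SE 0.044, adjusted p = 0.00533, edgeR). Prm1 and Prm2, the protamines that pack sperm DNA, were not called (log2FC values -0.11 and -0.09). The summed level of the list was 41160, 40250 and 35710 CPM in Irp2-/- and 41350, 42140, 40520 and 41440 CPM in WT testes. Irp2-/- replicate 3 was thus the lowest, and it was also the lowest for the sum of round spermatid genes, 7786 CPM against 8206 to 8699 CPM in WT. The part of spermatid content in the X-linked decreases was not tested.

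Other genes of spermatid structure were looked at after their values had been seen, so that their counts describe these samples only. The Adam genes encode metalloprotease-like membrane proteins, of which many are expressed in testis. Of 20 tested, 6 were called lower and 0 higher (30.0%, against 1.21% of all genes, median -0.07). All 6 lie between 40 and 50 Mb of chromosome 8, where no other of the 54 tested genes was called. Adam25 had 43.4, 39.4 and 44.5 CPM in Irp2-/- and 57.9, 57.1, 53.2 and 56.1 CPM in WT testes (log2FC -0.40, adjusted p = 0.000255, edgeR). Adam26a had 62.1, 50.4 and 61.0 CPM against 73.1 to 79.4 CPM (log2FC -0.40, adjusted p = 0.000867). The others were Adam26b, Adam20, Adam39 and Adam24, between -0.44 and -0.21, and the 6 are related in sequence. Of the 6 calls, 2 remained without Irp2-/- replicate 2 (Adam25 and Adam26a) and 3 without WT replicate 2, and that of Adam24 was lost in 5 of the 7 fits without 1 sample. Of 18 genes of the perinuclear theca, the protein shell around the sperm nucleus, 5 were called lower (27.8%, against 1.21% of all genes). They were Cylc1, Cypt1, Cypt3 and Actrt1 on the X chromosome and Cypt12 on chromosome 3. Cypt1 and Cypt3 lost their calls without Irp2-/- replicate 2, without Irp2-/- replicate 3 and without WT replicate 4, which leaves 3 of the 5 each time. Suv39h2, the testis-enriched histone H3 lysine 9 methyltransferase, had 38.7, 34.0 and 35.5 CPM against 47.9 to 51.5 CPM (log2FC -0.46, adjusted p = 5.56e-05).

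Genes of the somatic compartment showed small differences. Of 22 Sertoli cell genes, 11 peritubular myoid genes and 18 macrophage genes 0 were called (medians 0.01, 0.02 and 0.18). Of 11 endothelial genes Vwf, the clotting factor stored in endothelium, was called higher, with 21.4, 23.8 and 21.9 CPM in Irp2-/- and 16.5, 18.3, 15.9 and 18.5 CPM in WT testes (log2FC 0.37, adjusted p = 0.0127, edgeR). The call of Vwf was lost without Irp2-/- replicate 2 or without WT replicate 3. Pecam1 and Kdr, which also mark endothelium, overlapped between genotypes. The 31 genes of the extracellular matrix were a list put together after values had been seen. Of them, 5 were called higher and 0 lower (16.1%, against 1.21% of all genes, median 0.22). They were Hspg2, the basement membrane proteoglycan perlecan (log2FC 0.39), Col5a1 (0.43), Prelp (0.46), Fn1 (0.33) and the matrix receptor Lrp1 (0.27). The summed level of the list was 863.6, 841.2 and 815.7 CPM in Irp2-/- and 711.6, 742.2, 788.6 and 795.3 CPM in WT testes. Of the 5 calls, 2 remained without Irp2-/- replicate 2 (Hspg2 and Col5a1), and 3 remained without Irp2-/- replicate 1, WT replicate 1 or WT replicate 2. Under the correction for GC content and transcript length Fn1, Hspg2 and Lrp1 were no longer called. Transcripts called higher were longer than those called lower, with medians of 4300 and 1924.5 bases against 3183 over all genes.

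A second list made in that way, 28 chromatin regulators, had 6 members called higher and 1 lower (25.0%, against 1.21% of all genes, median 0.09). The higher ones were the histone methyltransferases Kmt2a (log2FC 0.34) and Kmt2c (0.36), the remodelers Chd7 (0.35) and Rsf1 (0.23), and the transcription factors Adnp (0.46) and Bcl11a (0.46). Bcl11a had 20.0, 24.6 and 22.5 CPM in Irp2-/- and 15.5, 17.1, 16.1 and 16 CPM in WT testes (adjusted p = 0.00245, edgeR). Kmt2a, one of the called genes around Ireb2, had an adjusted p of 0.0485 and lost its call in 5 of the 7 fits without 1 sample. Rsf1 had an adjusted p of 0.0416 and lost it in 6. Without WT replicate 1, 3 of the 6 higher calls remained (Kmt2c, Adnp and Bcl11a). Under the correction for GC content and transcript length Kmt2a and Rsf1 were no longer called.

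Markers of other tissues overlapped between the genotypes. The epididymal genes Lcn5, Lcn10 and Spint4 had 0 counts in all 7 samples. The summed blood cell genes lay between 16.88 and 39.05 CPM in Irp2-/- and between 26.04 and 41.08 CPM in WT testes. Of 19 immediate early genes 1 was called lower, Jund (log2FC -0.22, adjusted p = 0.0468), and of 17 heat shock chaperones 0 were called. The call of Jund was lost in 5 of the 7 fits without 1 sample. The protamine genes Prm1 and Prm2, which mark testis with late spermatids, were abundant in all 7 samples (2451 CPM or more).

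Between the knockouts, 763 of 16281 genes passed the test (4.69%), 1.76% with higher and 2.92% with lower levels in Irp2-/- testes. Of the 196 genes called against WT, 159 were among them, 158 on the same side as against WT, and of the 28 genes past both thresholds 24 were. These genes were chosen on the same 3 Irp2-/- samples, so these counts are partly fixed by that choice and nothing is read from them against the share over all genes. Leaving out Irp1-/- replicate 1 or Irp2-/- replicate 2 lowered the 763 to 471 and 414. The genes that did not pass between the knockouts included Mrgpra2b, Olfr126, Vmn1r181 and Ssc5d, all of which are at low levels.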

How the data were processed

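Testis polyA RNA of 3 Irp2-/- and 4 WT samples was compared. The authors deposited raw counts per gene, produced by nf-core's RNA-seq workflow from stranded paired-end reads of 50 bp and the mm10 genome. Per the submitters' processing notes, bcl2fastq 2.20.0.422 and DESeq2 were used, and the counter is not given in the sources used here, so whole numbers may be rounded estimates. Trimming, alignment and the division of reads among copies are thus part of the counts.

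Samples were grouped by their titles. The test was edgeR 4.0.16 under R 4.3.3 (filterByExpr, TMM, robust quasi-likelihood test, Benjamini-Hochberg adjustment over 16154 genes, two-sided), fitting only the 2 genotypes compared. Each standard error is the absolute log2 fold change divided by the root of F. Gene lists were described by counts and medians. The members and lists were chosen with earlier results of these data known. Named genes were Ireb2, Aco1, genes past both thresholds, the 12 smallest p-values in each direction among the rest, called list members and, for lists with fewer than 2 of these, up to 4 others in list order. Genes named for position, X linkage or likeness to a named gene were added after values were seen. Positions came from RefSeq (GRCm38.p6), with 15346 genes matched by symbol, 752 by synonym, 9 ambiguous and 47 not matched. Intervals cover counting error only. Alternatives were RLE normalization, other filters, DESeq2 1.42.0, all 11 samples, a replicate block and leaving out each sample. Added after seeing the data were thinning to the smallest total, a GC and length correction and the newer edgeR test. In simulated counts of this comparison, edgeR recovered 88% of 2-fold and 77% of 1.5-fold changes, and 7.30% of its calls were false. No column of per-sample values was left out. Values of 1 list member are not reported here.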

Additional observations from a re-analysis of the deposited data

Results flagged for a closer look

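Over 245 sets of 4 WT samples (named genes and summed lists), 9 had 1 sample far from the other 3 by Dixon's criterion, where chance gives about 12.2. WT replicate 3 was highest for Klk1b21 (12.3 CPM against 6.70 to 7.58) and Klk1b27 (8.27 CPM against 4.41 to 4.84), both lower in Irp2-/- testes, and both calls held without it. The same sample was highest for Cx3cr1 (4.14 CPM), and lowest for Cypt1 (39.0 CPM against 42.0 to 42.6) and for the summed heat shock chaperones (8380 CPM). WT replicate 1 was highest for Itgb3bp (71.2 CPM) and 4930433I11Rik (33.4 CPM), WT replicate 2 for Wt1 (48.7 CPM), and WT replicate 4 was lowest for 1700017B05Rik (156 CPM against 165 to 166).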

How the results depend on the processing

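Among alternatives that kept all samples, 132 to 244 genes were called and 20 to 33 passed both thresholds. RLE normalization, other filters, DESeq2, the fit of all 11 samples, the newer edgeR test and thinning left the X-linked genes called lower at 36 to 40, and the GC and length correction gave 25. Leaving out 1 replicate gave 118 to 223 called genes, 23 to 35 past both thresholds, 15 to 40 X-linked genes called lower with at most 2 higher, 9 to 11 neighbors of Ireb2, and 414 to 763 genes between the knockouts. The genotype share was then 22.1% to 28.1% (exact permutation p from 0.0667 to 0.133), in designs that cannot reach 0.05. Without Irp2-/- replicate 2 the p was 0.133, above the 0.0667 reached without either other Irp2-/- replicate. Another assignment of the labels thus gave a share at least as large there. No called gene reversed its direction under any alternative that was run.

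With the replicate number as a block, to which WT replicate 4 adds nothing, 132 genes were called (111 of the 196 among them) and 19 X-linked genes were lower and 2 higher. Same-numbered samples correlated at 0.0433, 0.116 and 0.0478 after removal of group means, and differently numbered ones at -0.1005 to 0.0486. With so few samples these values do not decide whether the numbers pair them. Counts of a few reads per library limit what can be seen below 1 CPM, as for Slc40a1 and the sensory receptor genes. Fewer samples by construction raise the smallest p that leaving out 1 replicate allows. Among single genes and lists, 3641 values kept their direction and side of the threshold, 305 lost and 24 gained a call, and 18 moved.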
